A study of Mus musculus with 4 samples.

Results

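The genes described here encode splicing factors and spliceosome proteins of mouse erythroleukemia cells. They were taken from the deposited gene table by symbol, as every gene whose symbol starts with Srsf and a digit, with Hnrnp, with Sf3a or Sf3b and a digit, or with Snrp. The rule found 52 of the 17393 genes in the table. They comprise 11 SR protein genes, 20 hnRNP genes, 9 genes for subunits of the U2 factor SF3 and 12 genes for Sm and other snRNP proteins. The series holds 4 RNA sequencing libraries of DS19 cells, a mouse erythroleukemia (MEL) line that makes globin when it differentiates. Of these, 2 are from cells with the genotype Wdr26-/-, called knockout below, and 2 are from wild-type cells, and each genotype has a library numbered 1 and a library numbered 2 in its title. The Wdr26 protein is part of the CTLH ubiquitin ligase, which marks other proteins for turnover. Cells of both genotypes grew in DMEM with serum, and the protocol also describes 1.5% DMSO, an inducer of erythroid differentiation. Whether the sequenced cells had received DMSO, how the knockout was made and whether it is 1 clone are not stated in the labels.

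Splicing removes introns from pre-mRNA in the spliceosome, which is built on each intron from small nuclear ribonucleoproteins (snRNPs) and many further proteins. The U1 snRNP recognises the 5′ splice site and the U2 snRNP the branch site, where the SF3A and SF3B subcomplexes contact the pre-mRNA, and the Sm proteins form a ring around the RNA of most spliceosomal snRNPs. SR proteins bind exonic sequences and mostly favour the use of nearby splice sites, while hnRNP proteins coat pre-mRNA and often oppose it. Erythroid maturation is known for regulated splicing of genes of the membrane skeleton and of iron handling, and SF3B1 is recurrently mutated in human myelodysplastic syndromes with ring sideroblasts.

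Wdr26 (gene ID 226757, chr1:181173226-181220921, mm10) stood at 9 and 7.84 FPKM in knockout libraries and at 55.4 and 52.4 FPKM in wild-type libraries, where FPKM is fragments per kilobase of transcript, scaled to the depth of the library. The knockout mean was 15.6% of the wild-type mean, a log2 change of −2.54 (SE 0.14, limma with Benjamini-Hochberg adjustment, adjusted p = 0.0063), and the adjusted p was 0.0743 with no filter on low genes. It was 0.0682 when wild-type library 1 was left out and 0.0549 when wild-type library 2 was. All 9 erythroid markers reached 1 FPKM, the lymphocyte and fibroblast markers summed to less than 1 FPKM in each library, and of 8 granulocyte and macrophage markers 2, Cd68 and Prtn3, reached 1 FPKM. These 8 summed to 10.1 and 14.6 FPKM in knockout libraries and to 5.96 and 5.54 FPKM in wild-type libraries. Of 8 megakaryocyte markers 4 (Gp1bb, Gp9, Itga2b and Pf4) reached 1 FPKM, and the 8 summed to 273.5 and 284.4 FPKM in knockout libraries and to 247.2 and 301.5 FPKM in wild-type libraries. The part of these cell types in the values below was not tested. Globin genes took 25.3% and 29.0% of all FPKM in knockout libraries and 28.5% and 32.9% in the wild-type libraries. Depth, estimated from the steps between low values, was between 20200000 and 21500000 fragments per library. The labels do not say if replicate libraries are from separate cultures, so p-values measure only how these samples spread, which may be technical.

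Of the 52 splicing genes, 50 reached 1 FPKM in at least 2 libraries and were tested among 10670 genes. Srsf12 was listed at 0 in every library, and Snrpn, an imprinted gene best known from neurons, was at 0 and 0.1 FPKM in knockout libraries and at 0.02 and 0.05 FPKM in wild-type libraries. The 50 tested genes were abundant, with a median level over the 4 libraries of 54.3 FPKM, against 11.6 FPKM over all genes tested. Their levels ran from 10.1 FPKM for Hnrnpr, an RNA-binding hnRNP protein, to 188 FPKM for Hnrnpk, which binds C-rich RNA and DNA. Among the snRNP genes Snrpb, for the Sm protein B, led at 170.3 FPKM and the U2 protein gene Snrpb2 was lowest at 15.4 FPKM. The Sm ring has 1 copy of each of its 7 proteins. The mean RNA levels of the 7 Sm core genes ranged from 33.7 FPKM for Snrpd1 to 170.3 FPKM for Snrpb, and protein levels were not measured.

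**Figure D1:**
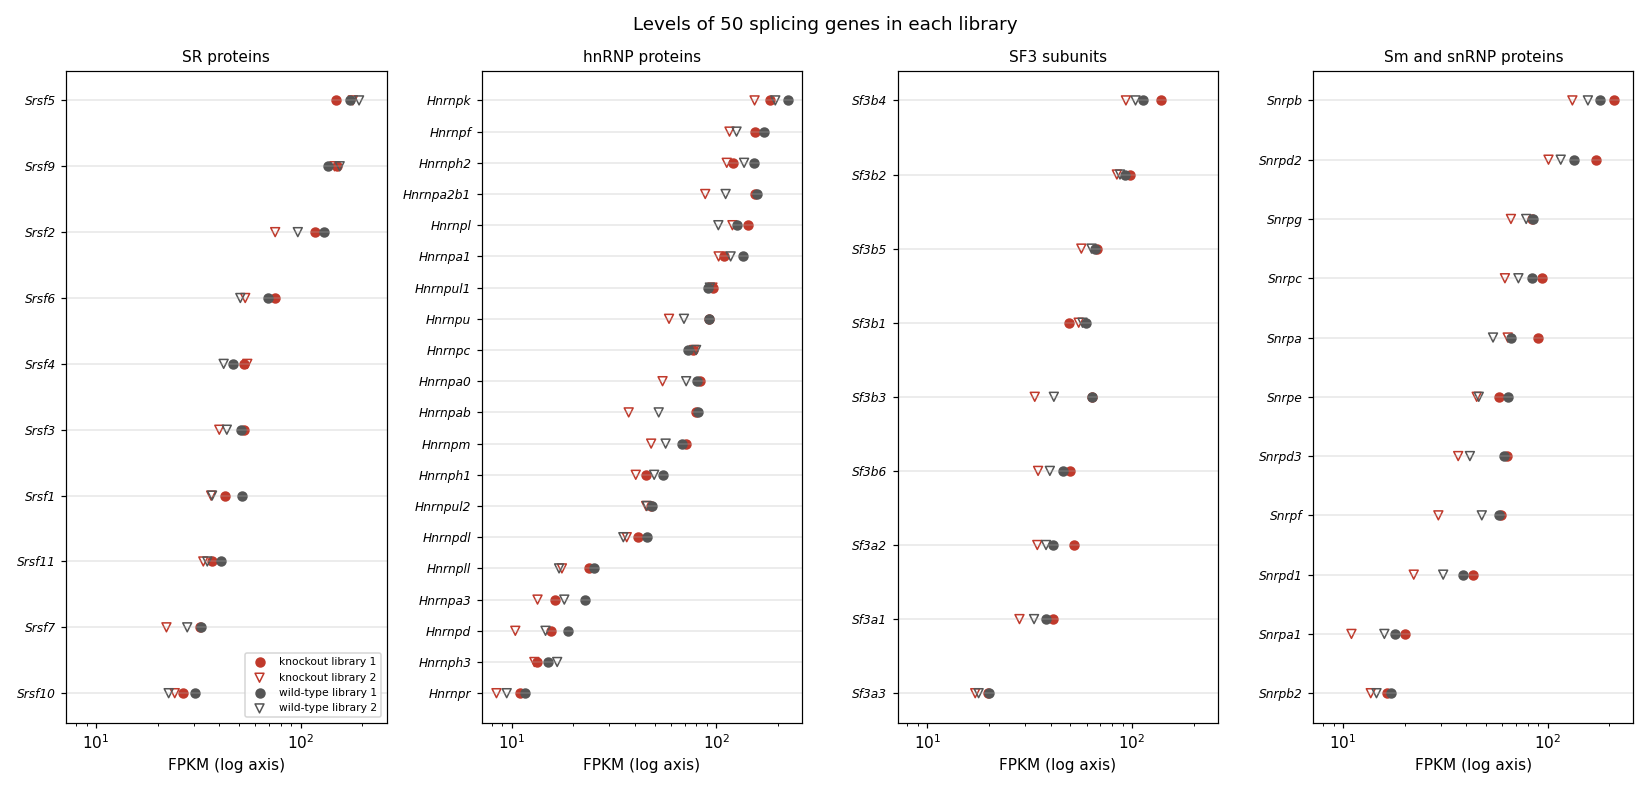
Levels of the 50 tested splicing genes in each of the 4 libraries, in FPKM on a log axis, with 1 panel per class of protein and red markers for knockout and dark markers for wild-type libraries. Levels span from about 10 FPKM for Hnrnpr to 188 FPKM for Hnrnpk, and in 38 of the 50 genes the lowest marker is knockout library 2.

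The sequences upstream of the start of 3 genes are shown because these genes had, among the Sm and snRNP genes, the largest positive genotype difference (Snrpa) and the largest negative one (Snrpf), and, for Hnrnph2, groups that did not overlap, with the knockout lower. Each is the 250 bases before the RefSeq start on the GRCm38.p6 (mm10) build, read 5′ to 3′ on the strand of the gene. Capitals mark matches on either strand to the letters CCAAT (the CCAAT box), GGGCGG (the GC box), CCGGAA (a core bound by ETS factors), CACGTG (the E box) and TATAAA (the TATA box). Snrpa lies at chr7:27196272-27196521 on the minus strand, Snrpf at chr10:93589659-93589908 on the minus strand and Hnrnph2 at chrX:134600929-134601178 on the plus strand.
Snrpa: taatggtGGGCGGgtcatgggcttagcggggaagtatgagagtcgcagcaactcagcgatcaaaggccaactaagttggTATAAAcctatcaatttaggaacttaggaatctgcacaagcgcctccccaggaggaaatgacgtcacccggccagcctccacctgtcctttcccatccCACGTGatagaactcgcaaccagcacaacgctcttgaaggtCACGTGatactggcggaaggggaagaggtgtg
Snrpf: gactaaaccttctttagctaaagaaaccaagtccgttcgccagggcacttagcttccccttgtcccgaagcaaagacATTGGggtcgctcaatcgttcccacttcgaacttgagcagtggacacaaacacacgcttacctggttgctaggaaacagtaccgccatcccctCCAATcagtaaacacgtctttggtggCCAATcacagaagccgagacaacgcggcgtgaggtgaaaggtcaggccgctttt
Hnrnph2: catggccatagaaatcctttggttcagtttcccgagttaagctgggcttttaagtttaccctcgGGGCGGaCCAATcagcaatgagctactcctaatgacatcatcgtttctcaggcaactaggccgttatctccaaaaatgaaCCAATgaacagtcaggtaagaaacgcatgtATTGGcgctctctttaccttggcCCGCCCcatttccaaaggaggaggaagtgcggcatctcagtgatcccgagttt
The Snrpa window holds 2 E boxes, 1 GC box and 1 TATA box, the Snrpf window 3 CCAAT boxes and the Hnrnph2 window 3 CCAAT boxes and 2 GC boxes. A window of 250 bases before and 50 after the start was found for 46 of the 52 splicing genes, the untested Srsf12 and Snrpn among them. Motifs were counted only in the 250 bases before the start. CCAAT occurred in the windows of 22 of the 46 (47.8%), against 41.6% of tested genes with a window, and GGGCGG in 33 (71.7%), against 66.6%. CCGGAA occurred in 23 (50%), against 27.9%, and the motif of NRF1 in 9 (19.6%), against 10.6%. TATAAA occurred in 6 (13.0%), against 7.09%, CACGTG in 4 (8.70%), against 10.5%, and the motif of YY1 in none of the 46, against 0.941%. Each motif was counted on its own over both strands, so matches of different motifs may overlap. A match is a run of letters and no measure of binding.

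The first comparison asks whether loss of Wdr26 went with a change in the level of splicing genes. None of the 50 tested splicing genes differed between knockout and wild-type cells at an adjusted p below 0.05 (limma with Benjamini-Hochberg adjustment over all genes tested), where 10 of 10670 genes did (0.0937%). At an unadjusted p below 0.05 there was 1 splicing gene, Hnrnpa3, against 11.4% of all genes tested. Differences are given as knockout minus wild type on the log2(FPKM + 1) scale, which understates the change of low genes. They ran from −0.44 for Hnrnpa3 to 0.33 for Snrpa, with a median of −0.089 over the 50 genes and 0.067 over all genes tested. In 7 genes both knockout libraries lay below both wild-type libraries (14%, against 10.8% of all genes tested). In 2 genes, Srsf4 and Hnrnpul1, both lay above (4%, against 29.9%). In the other 41 the groups overlapped (against 6326 of the 10670 genes tested). With values centred on each library's median, 14 lay below (against 20.1% of all genes tested) and 1 above (against 19.9%). An exact permutation test of a single gene over 2 against 2 libraries cannot give a two-sided p below 0.333.

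These counts depended on which libraries were used. Knockout library 2 alone lay below both wild-type libraries for 39 of the 50 genes (against 30.8% of all genes tested without knockout library 1), and knockout library 1 alone lay above both for 22 (against 51.4% of all genes tested without knockout library 2). Both knockout libraries lay below wild-type library 1 alone for 25 (against 28.5% of all genes tested without wild-type library 2) and above wild-type library 2 alone for 8 (against 50.5% without wild-type library 1). Without knockout library 1, limma called 5 splicing genes, all lower in the knockout (Hnrnpab, Hnrnpd, Sf3b3, Snrpd1 and Snrpf), against 6.86% of all genes tested. With the other libraries left out in turn, the number called was 0. In bulk RNA, fewer cells of a type and less RNA per cell cannot be told apart.

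The SR protein genes overlapped between genotypes in 9 of 10 cases (against 6326 of the 10670 genes tested) and had a median difference of −0.078. The exception was Srsf4 (gene ID 57317, chr4:131873530-131901725), which encodes the large SR protein SRp75. It stood at 52.6 and 54.8 FPKM in knockout libraries and at 46.6 and 42.0 FPKM in wild-type libraries. Both knockout libraries were higher, by 0.27 (SE 0.13, limma with Benjamini-Hochberg adjustment, adjusted p = 0.519). Srsf2, which encodes SC35 and binds exonic enhancers, stood at 118 and 75.1 FPKM in knockout libraries and at 129.9 and 96.8 FPKM in wild-type libraries. Only knockout library 2 lay outside the wild-type range, and the difference of −0.25 was no larger than its standard error of 0.25.

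The most abundant SR gene was Srsf5, which encodes SRp40, at 149 and 179.8 FPKM in knockout libraries and 174 and 193 FPKM in wild-type libraries (difference −0.16, SE 0.15). Srsf9, for SRp30c, had 150 and 146 FPKM in knockout libraries and 137 and 155 FPKM in wild-type libraries. The knockout values of Srsf9 lay within the wild-type range, and its difference of 0.026 changed sign when values were centred on each library's median. Srsf6, for SRp55, had 75.3 and 53.6 FPKM in knockout libraries and 69.5 and 50.7 FPKM in wild-type libraries. Its difference of 0.096 was under its standard error of 0.22. Srsf7, whose product also serves as an adapter for mRNA export, had 32.2 and 22.1 FPKM in knockout libraries and 32.7 and 27.9 FPKM in wild-type libraries, a difference of −0.17 (SE 0.20). The other 4 SR genes, Srsf1, Srsf3, Srsf10 and Srsf11, differed by between −0.15 and −0.034, with adjusted p between 0.865 and 0.973 (limma, Benjamini-Hochberg).

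The hnRNP genes held 6 of the 7 splicing genes with both knockout values below the wild-type ones, 6 of 20 (30%, against 10.8% of all genes tested). With values centred on each library's median it was 8 of 20, against 20.1%. Their median difference of −0.15 was the lowest of the 4 classes. Hnrnpa3 (gene ID 229279, chr2:75659105-75669407), an RNA-binding relative of the A1 and A2/B1 proteins, stood at 16.3 and 13.4 FPKM in knockout libraries and at 22.9 and 18.1 FPKM in wild-type libraries. The groups did not overlap. The knockout averaged 14.8 ± 2.08 FPKM and the wild type 20.5 ± 3.44 FPKM (SD, n = 2 each), a ratio of 72.4%. The difference of −0.44 (SE 0.17) had an adjusted p of 0.423 (limma, Benjamini-Hochberg). Hnrnph2 (gene ID 56258, chrX:134601179-134607060), whose product binds runs of G in RNA, stood at 120.2 and 112 FPKM in knockout libraries and at 152 and 137 FPKM in wild-type libraries. Both knockout libraries were lower, and the difference was −0.31 (SE 0.13, limma with Benjamini-Hochberg adjustment, adjusted p = 0.474). Hnrnpk (gene ID 15387, chr13:58391132-58403343) stood at 183 and 154 FPKM in knockout libraries and at 223 and 194 FPKM in wild-type libraries. Its difference was −0.31 (SE 0.16, limma with Benjamini-Hochberg adjustment, adjusted p = 0.542).

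The remaining 3 of the 6 are named after their values were seen, to complete that count. Hnrnpa1, a splicing repressor that binds UAG motifs, had 109 and 103 FPKM in knockout libraries and 136 and 117 FPKM in wild-type libraries. Hnrnph1, a close relative of Hnrnph2, had 45.5 and 40.4 FPKM in knockout libraries and 54.9 and 49.7 FPKM in wild-type libraries. Hnrnph3, a smaller member of the same G-run-binding family, had 13.4 and 12.9 FPKM in knockout libraries and 15.1 and 16.7 FPKM in wild-type libraries. Hnrnph1, Hnrnph2 and Hnrnph3 were all lower in both knockout libraries, as 10.8% of all genes tested were. Their differences were −0.28, −0.31 and −0.25, and none passed the test. They were set together after their values were seen, so nothing about the family is read from this. The related G-run binder Hnrnpf overlapped, with 155 and 116 FPKM in knockout libraries and 171 and 126 FPKM in wild-type libraries.

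Hnrnpd, which encodes AUF1, a binder of AU-rich elements, had 15.6 and 10.4 FPKM in knockout libraries and 18.9 and 14.6 FPKM in wild-type libraries. Knockout library 1 lay between the wild-type values and knockout library 2 below them, and the difference was −0.36 (SE 0.22). Hnrnpab, for an RNA- and DNA-binding A/B-type protein, had 80.0 and 37.3 FPKM in knockout libraries and 81.1 and 52.3 FPKM in wild-type libraries, and Hnrnpa2b1, for the abundant A2/B1 proteins, had 155 and 88.3 FPKM in knockout libraries and 158 and 111 FPKM in wild-type libraries. In both genes knockout library 1 was within the wild-type range and knockout library 2 was the lowest. The differences of −0.25 for Hnrnpab and −0.18 for Hnrnpa2b1 turned positive, to 0.29 and 0.22, without knockout library 2.

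Hnrnpul1, which encodes a nuclear RNA-binding relative of hnRNP U, was the only hnRNP gene higher in both knockout libraries, with 96.7 and 95.7 FPKM in knockout libraries and 91.4 and 93.0 FPKM in wild-type libraries. Its difference of 0.061 was under its standard error of 0.12, and it was −0.016 when values were centred on each library's median. Hnrnpl, whose product binds CA repeats, had 142 and 119.9 FPKM in knockout libraries and 127 and 102 FPKM in wild-type libraries. It had the largest positive difference of the hnRNP genes (0.20, SE 0.17), with overlapping groups. The other 11 hnRNP genes, Hnrnpa1, Hnrnph1 and Hnrnph3 among them, differed by between −0.28 and 0.024.

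The 9 genes for SF3 subunits had a median difference of −0.043. Sf3b1 (gene ID 81898, chr1:54985169-55027501), for the subunit that holds the branch site helix, stood at 49.4 and 54.9 FPKM in knockout libraries and at 59.4 and 57.3 FPKM in wild-type libraries. Of the SF3 genes, only this one had groups that did not overlap (difference −0.16, SE 0.13, limma with Benjamini-Hochberg adjustment, adjusted p = 0.742), and knockout library 2 was closer to the wild-type values. Over all genes tested, 10.8% were lower in both knockout libraries. In the other 8 SF3 genes knockout library 2 was the lowest of the 4 libraries. Sf3b4 (gene ID 107701, chr3:96172506-96177564), for an RNA-binding subunit of SF3B, had 138 and 93.4 FPKM in knockout libraries and 113 and 104 FPKM in wild-type libraries. Its knockout values thus lay on either side of both wild-type values. The difference was 0.069 (SE 0.21), and −0.0082 when values were centred on each library's median.

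Sf3a2, for a subunit of SF3A, had the same layout, with 52.1 and 34.5 FPKM in knockout libraries and 41.2 and 38.0 FPKM in wild-type libraries. So had Sf3a1, for the largest SF3A subunit, with 41.1 and 28.2 FPKM in knockout libraries and 38.1 and 33.2 FPKM in wild-type libraries, and Sf3b5, for the smallest SF3B subunit, with 67.6 and 56.6 FPKM in knockout libraries and 66.2 and 63.4 FPKM in wild-type libraries. Sf3b2, for a subunit near the branch site, had 98.2 and 84.4 FPKM in knockout libraries and 92.2 and 87.4 FPKM in wild-type libraries. Its difference of 0.019 was the closest to 0 of the SF3 genes, and it was −0.058 when values were centred on each library's median. Sf3b3, for the WD40-type scaffold subunit, had 63.8 and 33.5 FPKM in knockout libraries and 63.9 and 41.5 FPKM in wild-type libraries. The libraries numbered 1 were nearly equal in Sf3b3, and the difference of −0.15 (SE 0.34) was 0.30 without knockout library 2. Sf3a3 and Sf3b6 differed by −0.032 and −0.043.

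All 11 tested Sm and snRNP genes had overlapping groups (against 6326 of the 10670 genes tested), with a median difference of −0.079. Snrpa (gene ID 53607, chr7:27187006-27196271), for the U1-specific A protein, stood at 89.4 and 63.8 FPKM in knockout libraries and at 66.4 and 54.1 FPKM in wild-type libraries. Knockout library 1 was the highest, while knockout library 2 lay within the wild-type range, below wild-type library 1. The difference of 0.33 (SE 0.20) was the largest positive one of all 50 genes, with an adjusted p of 0.630 (limma, Benjamini-Hochberg). Snrpc, for the other U1-specific protein in the set, differed by −0.032. For the U2-specific proteins, Snrpa1 had 20.0 and 11.0 FPKM in knockout libraries and 17.9 and 15.9 FPKM in wild-type libraries, and Snrpb2 differed by −0.079.

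Among the Sm core genes, Snrpf (gene ID 69878, chr10:93583029-93589658), for the protein SmF, stood at 59.2 and 29.2 FPKM in knockout libraries and at 57.7 and 47.7 FPKM in wild-type libraries. Knockout library 1 was the highest of the 4 and knockout library 2 the lowest. The difference of −0.33 (SE 0.32, limma with Benjamini-Hochberg adjustment, adjusted p = 0.796) was −0.82 with only knockout library 2 and 0.17 with only knockout library 1. Snrpb had 212 and 132 FPKM in knockout libraries and 179.8 and 157 FPKM in wild-type libraries. Snrpd2, for SmD2, had 172 and 101 FPKM in knockout libraries and 135 and 116 FPKM in wild-type libraries. In both genes the knockout values spanned the wild-type ones, and the differences of −0.0074 for Snrpb and 0.075 for Snrpd2 changed sign under another scaling. Snrpd3, for SmD3, had 63.3 and 36.5 FPKM in knockout libraries and 61.3 and 41.7 FPKM in wild-type libraries. Snrpg, for SmG, had 83.8 and 66.2 FPKM in knockout libraries and 85.0 and 78.5 FPKM in wild-type libraries. Their differences were −0.070 and −0.13, and Snrpd1 and Snrpe differed by −0.16 and −0.092.

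**Figure D2:**
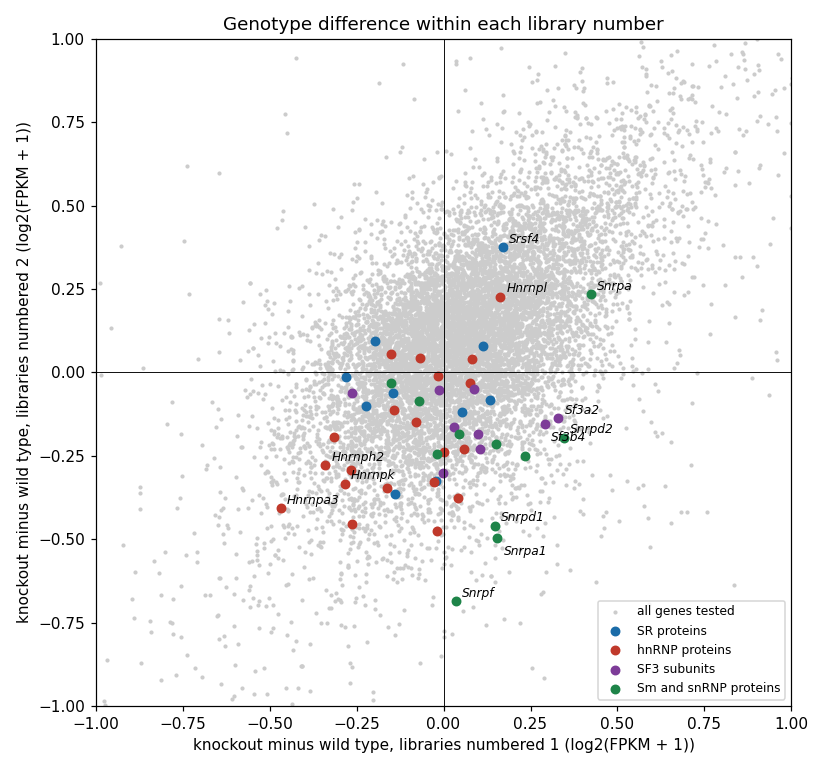
Knockout minus wild type for each gene, on the log2(FPKM + 1) scale, in the libraries numbered 1 (horizontal axis) and in those numbered 2 (vertical axis), with grey points for all genes tested and coloured points for the splicing genes by class. Of the 50 splicing genes, 19 lie right of 0 and below 0, and Hnrnpa3, Hnrnph2 and Hnrnpk lie at similar distances below 0 on both axes.

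The second comparison is between the libraries of a genotype, library 2 minus library 1. In 43 of the 50 splicing genes (86.0%) library 2 had the lower value in both genotypes, against 46.5% of all genes tested. It was higher in both genotypes for 2 genes, Srsf5 and Hnrnpc (4%, against 24.0%). With values centred on each library's median, 40 of the 50 were lower in library 2 in both genotypes, against 33.8% of all genes tested. The median difference over the splicing genes was −0.37 between the knockout libraries and −0.22 between the wild-type libraries, and over all genes tested −0.040 and −0.095. The sum over the splicing genes was 2936 FPKM in library 2 and 3805 FPKM in library 1 of the knockout, and 3276 FPKM in library 2 and 3808 FPKM in library 1 of the wild type. As a share of all FPKM outside the globin genes, this was 0.641% in library 2 and 0.802% in library 1 of the knockout, and 0.727% in library 2 and 0.856% in library 1 of the wild type. The library number was described and not tested, and the labels do not say what the numbers stand for.

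By class, library 2 was lower in both genotypes for all 11 Sm and snRNP genes, 8 of 9 SF3 genes, 17 of 20 hnRNP genes and 7 of 10 SR genes. Over all genes tested, 46.5% were lower in library 2 in both genotypes. Hnrnpab had 37.3 FPKM in library 2 and 80.0 FPKM in library 1 of the knockout, and 52.3 FPKM in library 2 and 81.1 FPKM in library 1 of the wild type. Sf3b3 had 33.5 FPKM in library 2 and 63.8 FPKM in library 1 of the knockout, and 41.5 FPKM in library 2 and 63.9 FPKM in library 1 of the wild type. These were the largest differences of their classes when averaged over the genotypes, −1.08 and −0.62 for Hnrnpab and −0.91 and −0.61 for Sf3b3 in the knockout and the wild type. In the other classes, the difference in the knockout and in the wild type was −0.64 and −0.42 for Srsf2, −0.48 and −0.45 for Srsf6, −0.78 and −0.55 for Snrpd3, and −0.99 and −0.27 for Snrpf. Srsf5 ran the other way, by 0.27 in the knockout and 0.14 in the wild type.

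Genes for DNA replication, which cells use in S phase, differed by library number too. All 31 of the list were lower in library 2 in both genotypes, against 46.5% of all genes tested. Their median difference was −0.85 between the knockout libraries and −0.68 between the wild-type libraries. The list was chosen with earlier results of these data known. Pcna, for the sliding clamp of DNA polymerases, had 49.6 FPKM in library 2 and 105 FPKM in library 1 of the knockout, and 72.6 FPKM in library 2 and 117 FPKM in library 1 of the wild type. The globin share given above was also higher in library 2 of either genotype. The part of either in the lower splicing genes was not tested.

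**Figure D3:**
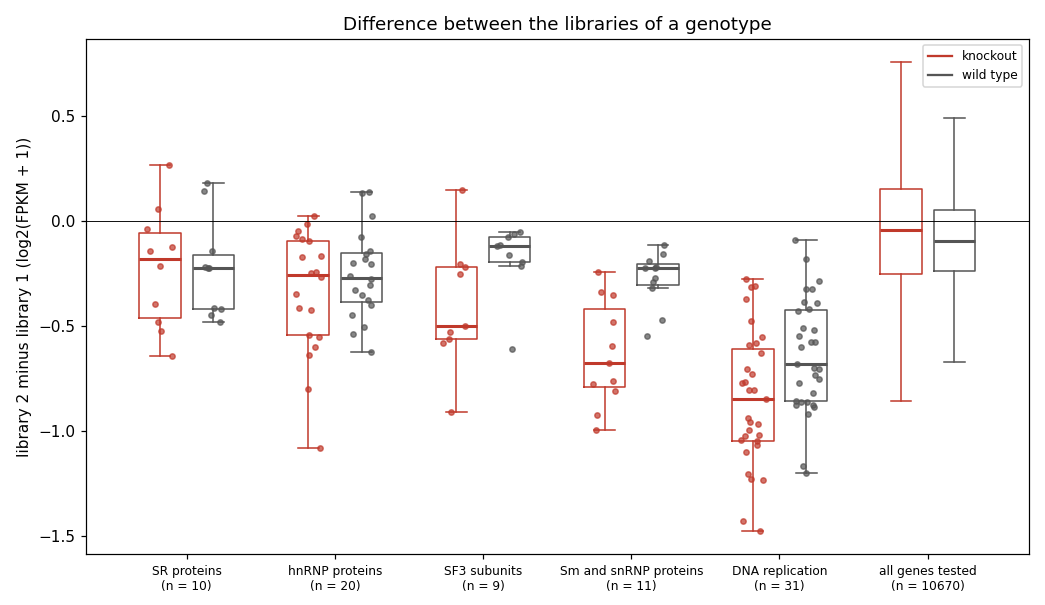
Library 2 minus library 1 for each gene, on the log2(FPKM + 1) scale, in the knockout (red) and in the wild type (dark grey), for the 4 classes of splicing genes, the DNA replication list and all genes tested. Points are genes (not drawn for all genes tested), boxes span the quartiles, whiskers have the default length of matplotlib, and thick lines are medians. The Sm and snRNP genes lie below 0 in both genotypes, with medians of −0.68 in the knockout and −0.23 in the wild type, and all 31 DNA replication genes do too.

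Because the libraries of a genotype differed, the genotype difference was also taken within each library number. Among the libraries numbered 1, the knockout was higher than the wild type in 24 of the 50 splicing genes, with a median difference of −0.0065. Among those numbered 2, it was higher in 8 of 50, with a median of −0.17. Over all genes tested these medians were 0.052 and 0.091. In 19 of the 50 genes (38.0%, against 13.4% of all genes tested) the knockout was higher in the libraries numbered 1 and lower in those numbered 2. This was so for 6 of 9 SF3 genes, 7 of 11 Sm and snRNP genes, 2 of 10 SR genes and 4 of 20 hnRNP genes. Knockout library 2 held the lowest value of the 4 for 38 of the 50 genes (76.0%, against 26.2% of all genes tested). Library 2 minus library 1 was lower in the knockout than in the wild type for 35 of the 50 (against 43.0% of all genes tested).

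By class, the median genotype difference of the Sm and snRNP genes was 0.15 in the libraries numbered 1 and −0.22 in those numbered 2, and that of the SF3 genes was 0.089 and −0.15. The SR genes had medians of −0.081 and −0.073, and the hnRNP genes −0.073 and −0.23. For Hnrnpa3 the difference was −0.47 in the libraries numbered 1 and −0.41 in those numbered 2, for Hnrnph2 −0.34 and −0.28, and for Hnrnpk −0.28 and −0.33. These 3 genes were lower in the knockout within either number by a similar amount. For Srsf4 it was 0.17 and 0.38 and for Snrpa 0.42 and 0.23, higher in the knockout within either number. For Snrpf it was 0.036 and −0.69, and for Snrpd2 0.35 and −0.20, so that these differences rested on the library number used. The differences between libraries of the 50 genes had an SD of 0.31 between the knockout libraries and 0.19 between the wild-type libraries, and of 0.19 and 0.20 between genotypes within numbers 1 and 2. Over all genes tested these SDs were, in the same order, 0.36, 0.27, 0.31 and 0.33. A shift shared by all genes of a set does not enter its SD.

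Other genes of the splicing pathway were examined by 9 lists of further spliceosome, splicing regulator, snRNP assembly and nonsense-mediated decay proteins, 186 genes of which 176 were tested. None passed the test (limma with Benjamini-Hochberg adjustment), and 4 were at an unadjusted p below 0.05, against 11.4% of all genes tested. Both knockout libraries were higher for 21 (11.9%, against 29.9% of all genes tested) and lower for 16 (9.09%, against 10.8%). Library 2 was lower in both genotypes for 113 (64.2%, against 46.5%). Pspc1, for a paraspeckle protein, had the lowest adjusted p, with 10.8 and 10.4 FPKM in knockout libraries and 15.6 and 15.2 FPKM in wild-type libraries. The groups did not overlap, and the difference was −0.50 (SE 0.13, limma with Benjamini-Hochberg adjustment, adjusted p = 0.260). Gemin8, for a subunit of the SMN complex that loads Sm proteins onto snRNA, had 3.41 and 3.49 FPKM in knockout libraries and 2.03 and 1.91 FPKM in wild-type libraries. It was higher in both knockout libraries, by 0.58 (SE 0.15, limma with Benjamini-Hochberg adjustment, adjusted p = 0.265).

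Of the 13 tested proteins of the minor spliceosome, which removes the rare U12-type introns, 3 were higher (23.1%, against 29.9% of all genes tested) and 1 was lower (7.69%, against 10.8%) in both knockout libraries. Zmat5, for a zinc finger protein of the U11/U12 snRNP, had 11.9 and 9.79 FPKM in knockout libraries and 6.58 and 8.37 FPKM in wild-type libraries, a difference of 0.49 (SE 0.17). Snrnp25, for another protein of that snRNP, had 89.3 and 93.0 FPKM in knockout libraries and 111 and 120.0 FPKM in wild-type libraries, a difference of −0.33 (SE 0.13). Their groups did not overlap, and their adjusted p was 0.387 for Zmat5 and 0.408 for Snrnp25 (limma, Benjamini-Hochberg).

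Among the U2-associated and tri-snRNP proteins, 3 of 33 were higher and 3 were lower in both knockout libraries. For this and the lists that follow, the shares over all genes tested are again 29.9% higher and 10.8% lower, and nothing particular to a list is read from these counts. U2af2, for the large subunit of U2AF, was the most abundant, with 177 and 128 FPKM in knockout libraries and 163 and 132 FPKM in wild-type libraries, and the ends of this list were Sugp1 (0.25) and Luc7l2 (−0.31). In the Prp19 complex and among catalytic-step proteins, 3 of 33 were higher and 3 lower, from Cwc15 (−0.43) to Cdc40 (0.28), and Bcas2 was the most abundant. Among the 34 tested further RNA-binding regulators, 4 were higher and 4 lower. Pcbp2, a poly(C)-binding protein, was the most abundant of these, with 484 and 599 FPKM in knockout libraries and 414 and 434 FPKM in wild-type libraries, a difference of 0.35 (SE 0.16). Of the 18 exon junction complex and SR-related proteins 3 were higher and 2 lower, with Son, a nuclear speckle protein, at −0.28. Of the 9 tested genes for SR protein kinases and their import factor, none was higher and 2 were lower, with Clk4 at −0.26. The groups overlapped for all 8 genes of the LSm list, which holds Sart3 beside the genes for the ring on U6 RNA. Of the 10 nonsense-mediated decay genes 3 were higher and 1, Upf1, was lower (−0.21). Of the 18 genes for the SMN complex and snRNP assembly, 2 were higher and none was lower.

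By library number, library 2 was lower in both genotypes for all 8 genes of the LSm list (against 46.5% of all genes tested). The same held for 17 of 18 genes of the SMN complex and snRNP assembly. It held for 2 of 13 minor spliceosome genes and 2 of 9 genes for SR protein kinases and import. Lsm2 had 6.95 FPKM in library 2 and 14.3 FPKM in library 1 of the knockout, and 10.4 FPKM in library 2 and 14.8 FPKM in library 1 of the wild type. Wdr77, for a partner of the methylase that modifies Sm proteins, had 4.60 FPKM in library 2 and 8.23 FPKM in library 1 of the knockout, and 6.83 FPKM in library 2 and 9.70 FPKM in library 1 of the wild type. Both were lower in library 2, as the Sm core genes were. Clk3, for a kinase of SR proteins, was higher in library 2, by 0.26 in the knockout and 0.12 in the wild type.

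**Figure D4:**
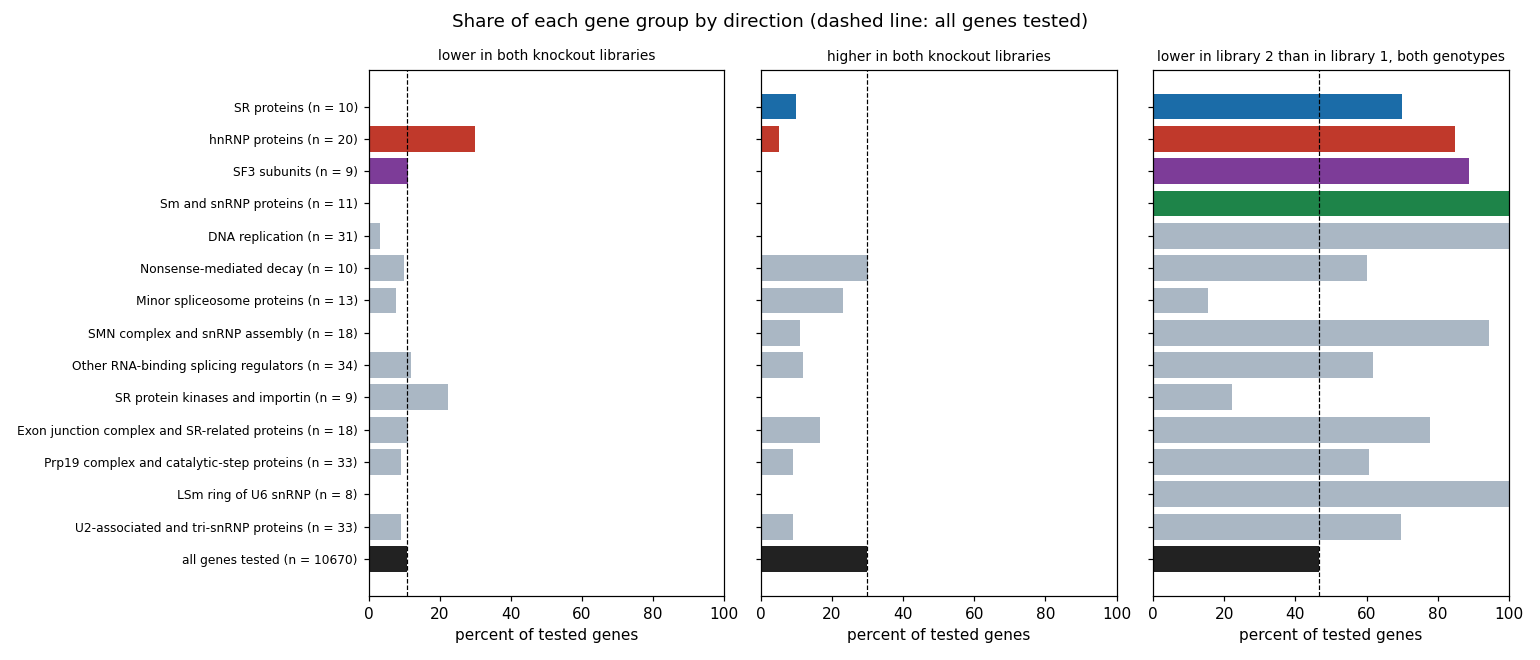
Percent of tested genes in each class or list that were lower in both knockout libraries (left), higher in both (middle) or lower in library 2 in both genotypes, with a dashed line for all genes tested. All genes tested stand at 10.8% lower and 29.9% higher in the knockout, and at 46.5% lower in library 2 of both genotypes. Of the splicing classes only the hnRNP (30% lower) and SF3 genes (11.1% lower) reach or pass the first and none passes the second. All 31 DNA replication genes and all 8 genes of the LSm list were lower in library 2.

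What each value counts bears on its reading. Each is 1 value per gene over all its transcripts, so a switch between isoforms would not show. For 14 of the 52 genes these include transcripts assembled from the reads. Among them are Hnrnpk (6 of 12 transcripts), Hnrnpa3 (4 of 7), Hnrnph3 (4 of 5) and Hnrnpa1 (1 of 4). For 5 genes they include non-coding RefSeq transcripts. Which transcripts carried the reads was not tested. The GENCODE annotation lists a transcript marked for nonsense-mediated decay for 24 of the 52 genes, 9 SR, 10 hnRNP, 1 SF3 and 4 Sm and snRNP genes, and SR proteins are known to regulate their own mRNA through such isoforms. For 16 genes more than 10% of the 50-base windows of the longest coding transcript also occur at another annotated locus. The share was 49.3% for Sf3b4, 49.0% for Hnrnpf, 46.4% for Hnrnpa1, 34.5% for Hnrnpk, 31.5% for Srsf3, 28.2% for Hnrnpa3 and 27.8% for Srsf5. It was 22.5% for Snrpa, 21.3% for Snrpf, 18.2% for Hnrnph2 and 12.3% for Hnrnpc. Snrpc, Snrpd1, Snrpd2, Snrpe and Snrpg were also above 10%. The values of these 16 genes are thus uncertain. The share was 0 for 19 genes, Srsf4 and Sf3b1 among them. Another gene of the table overlaps 11 of the 52, including Srsf4 (Gm12992), Snrpa (BC024978), Snrpf (Ccdc38), Hnrnph3 (Rufy2) and Hnrnpk (Rmi1). The labels do not state if strand was kept, so reads of such neighbours may not be told apart.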

How the data were processed

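RNA from 4 samples of DS19 cells was sequenced after depletion of ribosomal RNA, per the labels' protocols. The authors deposited 1 table with a value per gene and library, whose header names no unit, and the deposited values were taken as FPKM because values times transcript length sum to between 1.02e+09 and 1.04e+09 in each library while plain totals differ. The submitters' processing notes name TopHat2 and mm10, with no role, and no label names the program behind the values. Samples were grouped by the genotype in the labels and numbered by their titles. No column of per-sample values was left unused. For 24 genes a date stood in place of the symbol, which was restored by gene ID, and 16316 gene IDs matched the RefSeq gene table. Depth was estimated from the steps between low values of single-transcript genes. Several losses of effective length and many depths were tried. Those with the largest excess of whole fragments were kept, with a loss of 50 bases. Between 62.5% and 68.4% of these values then came out as whole fragments, to within the rounding of the deposited values (0.005 FPKM). Rounding alone gives 20.0% to 21.3%, with no allowance for that search. No counts were thus recovered, and no interval from counts is given.

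The filter was a level of 1 FPKM or more in 2 or more libraries. Values were taken to log2(FPKM + 1), and knockout was compared with wild type over all 4 libraries with limma 3.58.1 in R 4.3.3 (empirical Bayes with a trend, no replicate block), with Benjamini-Hochberg adjustment over all 10670 genes and a threshold of 0.05. The fit was tested on simulated data with independent noise between libraries. In the deposited data same-numbered libraries deviated together, which that simulation did not cover. Groups are said not to overlap where both knockout values lie on 1 side of both wild-type values. The splicing genes and the lists were chosen with earlier results of these data known. Genes named were Wdr26 and, in each class, the 3 highest by mean level, the 2 with the largest difference in either direction, the 2 with the largest difference between libraries of the same sign in both genotypes and, in each further list, the highest and the ends. Alternatives were other scalings, filters, a pseudocount of 0.1, no trend, a replicate block and leaving out each library. Annotation was from GENCODE M21, and promoter sequences from RefSeq on GRCm38.p6. Python 3.11.15, pandas 2.3.3 and matplotlib 3.10.9 were used.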

Additional observations from a re-analysis of the deposited data

How the results depend on the processing

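The number of splicing genes called was 0 under every other scaling, filter, pseudocount and variance model tried. All genes called numbered 10, and 44 with values rescaled to a common sum (TPM), 21 with globin genes left out, 0 with no filter and 2 among genes averaging 5 FPKM or more. With values centred on each library's median, 1 splicing gene had both knockout values above and 14 had both below the wild-type ones, and 6 had the higher value in library 2 of both genotypes. After quantile normalization 14 were lower in the knockout and 5 higher in library 2, and with globin genes left out 1 was higher in the knockout and 5 higher in library 2. Single genes changed sign under centring (Hnrnpul1 to −0.016, Sf3b2 to −0.058, Sf3b4 to −0.0082, Snrpd2 to −0.0021 and Srsf9 to −0.051), quantile normalization (Sf3b2 to −5.2e-05), TPM (Snrpb to 0.0066) and without globin genes (Sf3b2 to −0.038 and Srsf9 to −0.032), and the causes were not tested. Of the alternative values, 360 kept direction and side of the threshold, or stayed within the spread, and 43 were of the opposite sign.

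The same-numbered libraries deviated together, with a correlation of 0.606 over all genes and 0.601 over the splicing genes, but with 2 pairs and no label behind the numbers this was not taken as pairing. With a replicate block 1863 genes (17.5%) and 6 splicing genes were called (Hnrnpa3, Hnrnpd, Hnrnph2, Hnrnpk and Snrpf lower, Snrpa higher). With the replicate block and centred values 1391 genes and 5 splicing genes were called (Hnrnpa3, Hnrnpd, Hnrnph1, Hnrnph2 and Hnrnpk, all lower). Snrpa and Snrpf were not among them. In that setting 1 splicing gene lay above, 14 lay below and 6 were higher in library 2. The genes that changed sign there were the 5 that did so under centring alone.

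Leaving out each library in turn, 0 to 720 genes and 0 to 5 splicing genes were called, 2 to 22 splicing genes were higher and 8 to 39 lower in the knockout, and their median difference was −0.29 to 0.087. The lone library of a genotype is then assumed to vary like the other genotype. The differences of single genes that changed sign ranged from −0.58 to 0.22 for Hnrnpa2b1, −0.79 to 0.29 for Hnrnpab, −0.35 to 0.095 for Hnrnpf, −0.33 to 0.20 for Sf3a1, −0.19 to 0.39 for Sf3a2, −0.089 to 0.13 for Sf3b2, −0.61 to 0.30 for Sf3b3, −0.21 to 0.35 for Sf3b4, −0.19 to 0.060 for Sf3b5, −0.57 to 0.23 for Snrpa1, −0.35 to 0.33 for Snrpb, −0.31 to 0.46 for Snrpd2, −0.46 to 0.32 for Snrpd3, −0.82 to 0.17 for Snrpf, −0.30 to 0.036 for Snrpg, −0.57 to 0.071 for Srsf2, −0.15 to 0.34 for Srsf6, −0.43 to 0.088 for Srsf7 and −0.065 to 0.12 for Srsf9. With 2 libraries a genotype, a difference within the spread between them could not be detected, and the deposited values carry no counts from which a counting error could be had.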

Other observations

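Rsrc1, for an SR-related protein and the most abundant gene of the further splicing lists, was listed at 12456 and 15036 FPKM in the knockout libraries and at 11069.9 and 11168 FPKM in wild-type libraries, far above any of the 50 splicing genes. Its entry in the table includes transcripts assembled from the reads. Which of them carried the reads was not tested.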
